A study of Homo sapiens with 12 samples.

Results

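Interferon-stimulated genes were followed in RNA-seq counts from DU-145/tet-MUC1shRNA and LNCaP-AI/tet-MUC1shRNA prostate cancer cells. The set holds 41 named genes, found by matching the Ensembl identifiers of the count table to gene symbols, and all 41 were among its 58037 identifiers. DU-145 is an androgen-independent prostate cancer cell line. LNCaP-AI cells were derived from C4-2B, itself a derivative of LNCaP, by prolonged culture in androgen-depleted medium. Cells of both lines carry a puromycin-selected vector that makes an shRNA against MUC1 when doxycycline (DOX) is added, so the control samples carry it too, and the sources used here do not say whether the selected cells were a pool or a clone. Treatment lasted 7 days in all 12 samples, of which 3 in each line received vehicle (DMSO) and 3 received DOX at 500 ng/ml. The labels give charcoal-stripped serum for both lines. They write shCTL for the vehicle groups and shMUC1 for the DOX groups, although in the study both come from the same cells. Cells with a control shRNA and DOX were not analysed here, so the effects of DOX and of the shRNA cannot be told apart.

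Interferons are secreted in response to foreign or misplaced nucleic acid, which is sensed in the cytoplasm by RIGI and IFIH1 (double-stranded RNA) and by CGAS with STING1 (DNA). Type I and type III interferons bind their receptors and activate the kinases JAK1 and TYK2, which phosphorylate STAT2 among others. STAT2 and IRF9 are parts of ISGF3, a factor that binds the interferon-stimulated response element (ISRE) in promoters, whereas type II interferon acts through the gamma-activated site (GAS). The induced genes encode more of the pathway itself (STAT2, IRF7, IRF9), RNA sensors (RIGI, IFIH1, the OAS enzymes), and effectors that block translation or viral entry (the IFIT and IFITM proteins), and they can be expressed at a low level in cancer cells without added interferon.

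Of the members with a promoter sequence whose response differed between the lines by the test given further on, IFIT1, IFIT3, IFI44 and IFI6 had the largest difference, and their promoters are printed here to show the element they share. RefSeq promoters on GRCh38.p14, taken from 250 bases before to 50 bases after each start, were given for 33 of the 41 genes, some with several starts, and none for IRF7, OAS2, OASL, IFIT2, IFITM2, MX2, USP18 and TRIM22. The ISRE core searched was GAAANNGAAA on either strand, and capitals mark it in the 250 bases before the start, written 5′ to 3′ on the strand of the gene.
IFIT1 (plus strand, chr10:89392373-89392622): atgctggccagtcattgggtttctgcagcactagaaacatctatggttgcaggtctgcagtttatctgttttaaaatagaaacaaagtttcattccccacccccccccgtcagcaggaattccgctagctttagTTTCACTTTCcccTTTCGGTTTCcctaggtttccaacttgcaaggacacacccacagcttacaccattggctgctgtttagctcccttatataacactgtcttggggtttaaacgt
IFIT3 (plus strand, chr10:89327747-89327996): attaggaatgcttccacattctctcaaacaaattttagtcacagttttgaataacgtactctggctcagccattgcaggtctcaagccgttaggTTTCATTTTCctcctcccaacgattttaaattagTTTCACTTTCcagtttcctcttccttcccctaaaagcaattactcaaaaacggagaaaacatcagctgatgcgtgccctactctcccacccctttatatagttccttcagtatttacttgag
IFI44 (plus strand, chr1:78649539-78649788): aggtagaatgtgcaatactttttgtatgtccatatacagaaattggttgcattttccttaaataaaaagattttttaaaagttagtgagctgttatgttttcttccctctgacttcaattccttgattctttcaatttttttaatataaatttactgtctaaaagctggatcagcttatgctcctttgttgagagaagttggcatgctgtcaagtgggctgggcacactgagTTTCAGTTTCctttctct
IFI6 (minus strand, chr1:27672193-27672442): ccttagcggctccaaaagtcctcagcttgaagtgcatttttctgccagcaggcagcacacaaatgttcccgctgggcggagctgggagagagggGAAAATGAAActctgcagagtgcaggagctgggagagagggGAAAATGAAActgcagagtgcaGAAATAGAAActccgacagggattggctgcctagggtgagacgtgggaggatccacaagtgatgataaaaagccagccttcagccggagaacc
IFIT1 held a pair of cores that begin at -116 and -103 from the start and IFIT3 a pair at -156 and -122, IFI44 held 1 core at -18, and IFI6 held 3. All cores of the first 3 genes lay on the opposite strand and those of IFI6 on the strand of the gene.

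An ISRE core was present in 28 of the 43 promoters of members (65.1%), belonging to 24 of the 33 genes, against 1255 of all 35116 promoters (3.57%). The GAS letters TTCNNNGAA, which match on both strands alike, were present in 12 of the 43 (27.9%) and in 7.66% of all promoters. Among the 57 pathway genes that are no members, 13.3% of 60 promoters held the ISRE core. The distances of the cores from the start are drawn in the map of promoters. These matches describe letters in a window and are not measurements of binding. All 12 genes with a promoter that fell with DOX in DU-145 cells held a core, as did 1 of the 3 that rose there, and 4 of the 6 with a promoter that rose in LNCaP-AI cells. These counts are to be read beside the 24 of 33 members above. SAMD9L, 1 of the 6 and without a core, passed the filter on low counts only through its DOX group.

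**Figure D1:**
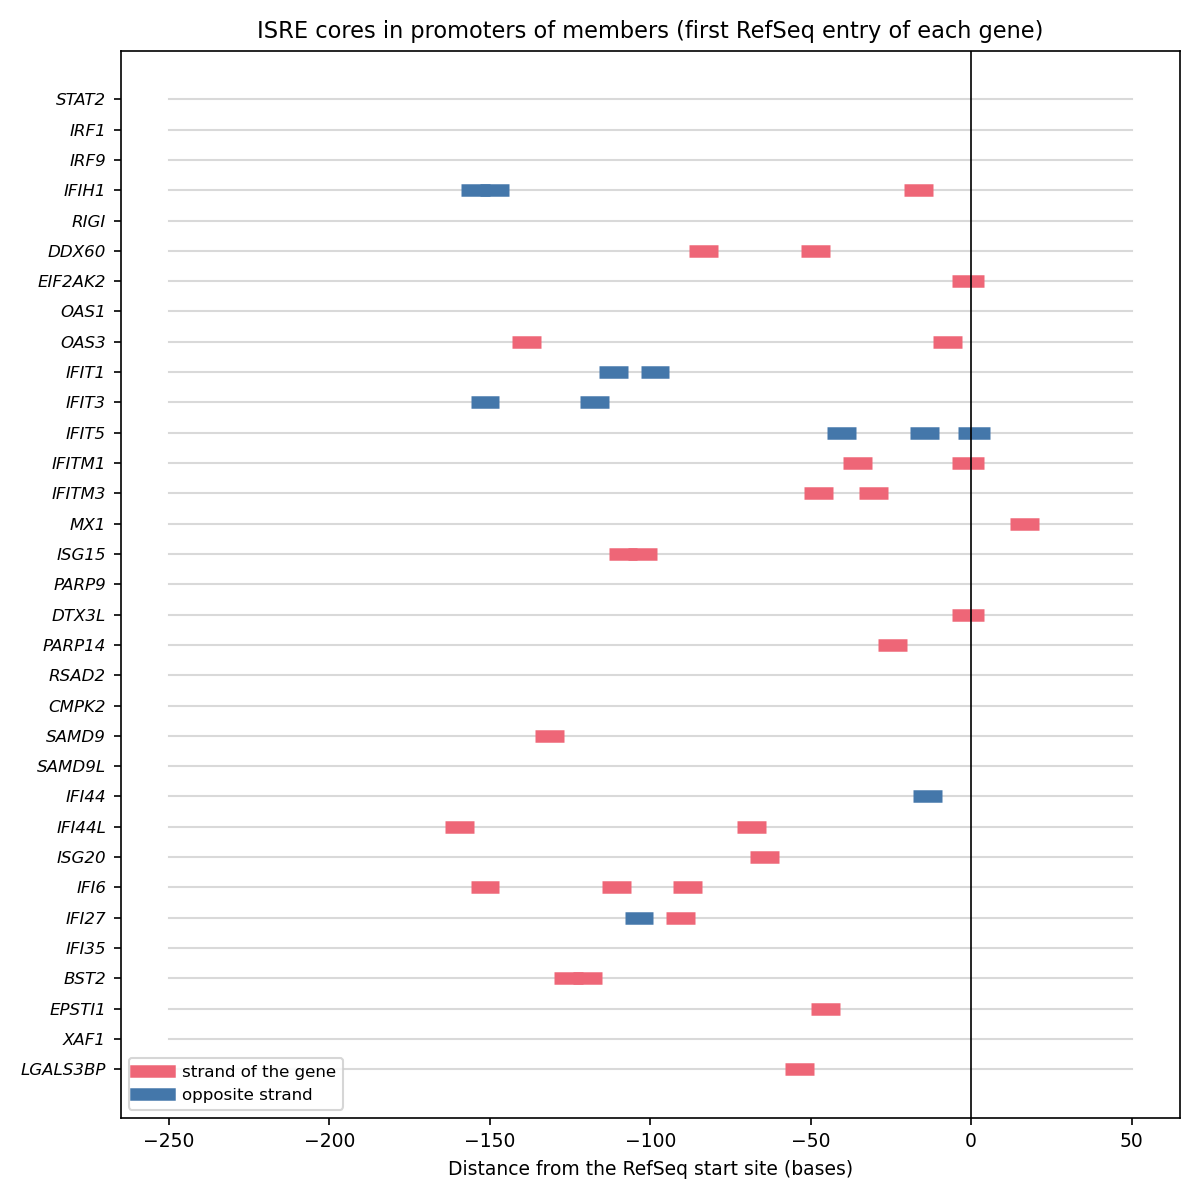
ISRE cores (coloured blocks) in the first RefSeq promoter of each of 33 members, with the distance from the start site in bases on the horizontal axis and 1 gene per row. Red blocks lie on the strand of the gene and blue blocks on the opposite strand. Rows without a block held no core in the window shown.

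Total counts ranged from 10423437 to 13544153 in DU-145 samples and from 16569613 to 26961777 in LNCaP-AI samples. KLK3, KLK2 and HOXB13, which mark the LNCaP lineage, were at 0 counts in all DU-145 samples and abundant in all LNCaP-AI samples. MUC1, the target of the shRNA, had 74, 60 and 59 counts in the control cells of DU-145 and 3 in each DOX sample. In LNCaP-AI cells it had 36, 25 and 52 counts with vehicle and 8, 6 and 3 with DOX. Its log2 fold change was -4.39 in DU-145 (SE 0.315, adjusted p = 1.37e-09) and -2.50 in LNCaP-AI cells (SE 0.330, adjusted p = 0.0139); these and all adjusted p-values that follow come from edgeR's quasi-likelihood test with Benjamini-Hochberg adjustment over all genes tested. The labels say that cells were grown in triplicate and no more, so p-values measure the spread between these samples, which may be technical.

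The LNCaP-AI samples divided across treatment. The first principal component of log2 CPM (TMM-scaled counts relative to library size) held 79.5% of the variance and put vehicle 1 together with DOX 2 and DOX 3, and DOX 1 together with vehicle 2 and vehicle 3. MUC1 separated by label and not by this division. Fold changes in LNCaP-AI cells are therefore also given within each side, without a test: first for DOX 2 and DOX 3 against vehicle 1, then for DOX 1 against vehicle 2 and vehicle 3. Lists of markers of other cell types were read beside this division. The 6 leukocyte markers summed to 0.0891 to 0.394 CPM on the side of vehicle 1 and to 1.30 to 1.53 CPM on the other, mostly CD14, while PTPRC had 0 to 2 counts and CD3E none. The 6 fibroblast markers overlapped between the sides (22.7 to 26.2 against 20.9 to 28.0 CPM), although DCN among them divided (0 to 2 against 18 to 20 counts). The 5 endothelial markers overlapped between the sides (5.30 to 8.50 against 5.08 to 9.28 CPM), although PECAM1 divided (0 or 1 against 36 to 72 counts). The part of these markers in any result was not tested.

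Of the 41 members, 27 passed the filter of at least 10 counts in 3 samples in both lines and 10 passed it in LNCaP-AI cells alone (IRF9, OAS1, IFITM1, RSAD2, CMPK2, SAMD9L, IFI44L, BST2, EPSTI1 and TRIM22). OAS2, MX2, IFI27 and XAF1 passed it in neither. Levels of 9 members never exceeded 3 counts in any DU-145 sample, 3 counts being taken as the floor of detection for counting error.

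The response to silencing of MUC1 was first taken from DOX against vehicle in DU-145 cells. Of the 27 members tested, 15 were lower, 3 were higher and 9 did not pass the test at an adjusted p of 0.05, and their median log2 fold change was -0.37, beside 0.00 over all 13644 genes tested. DOX moved much of the transcriptome in this line, with 25.3% of all genes called lower and 26.3% called higher, against which the counts of members are to be read. By adjusted p the first decreases were in DDX60, an RNA helicase related to RIGI, and in IFIT1, IFIT2 and IFIT3, whose products bind viral RNA and restrict its translation.

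DDX60 (GRCh38 chromosome 4, 168216291 to 168318883) was at 8.84, 7.78 and 7.47 CPM in the vehicle samples and at 1.89, 1.65 and 1.33 CPM with DOX. No DOX sample came near a vehicle sample, and the log2 fold change was -2.30 (SE 0.202, adjusted p = 2.11e-08). IFIT1 (chromosome 10, 89392546 to 89406487) measured 13.0, 15.6 and 14.8 CPM with vehicle and 3.77, 4.72 and 5.23 CPM with DOX. Its groups did not overlap either, with a log2 fold change of -1.65 (SE 0.151, adjusted p = 3.83e-08). IFIT2 (chromosome 10, 89283694 to 89309271) went from 12.4, 13.1 and 13.2 CPM to 4.72, 6.06 and 5.67 CPM. This was a log2 fold change of -1.22 (SE 0.140, adjusted p = 7.04e-07), again without overlap of the groups. IFIT3 (chromosome 10, 89327307 to 89377473), the partner of IFIT1 in its complex, was at 21.3, 21.1 and 21.1 CPM with vehicle and 12.4, 9.28 and 11.5 CPM with DOX. The vehicle samples lay close together and above every DOX sample, and IFIT3 fell by 0.94 on the log2 scale (SE 0.117, adjusted p = 1.91e-06). PARP14, an ADP-ribosyltransferase, was at 60.9, 54.7 and 63.4 CPM with vehicle and at 42.2, 33.5 and 40.3 CPM with DOX, where it was lower in every sample (log2 fold change -0.62, SE 0.0916, adjusted p = 1.32e-05). IFIT5, the remaining IFIT gene, did not pass the test (log2 fold change 0.14, SE 0.102, adjusted p = 0.285).

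Decreases extended over most of the roles. All 6 tested sensors of double-stranded RNA changed, 4 lower and 2 higher. OASL, an OAS-like protein without 2-5A synthetase activity, fell from 7.53, 6.27 and 4.28 CPM to 2.64, 1.97 and 2.48 CPM, a log2 fold change of -1.35 (SE 0.231). OAS3, a synthetase of the 2-5A that activates RNase L, had a log2 fold change of -0.50, and EIF2AK2, the kinase PKR that stops translation, one of -0.37. Both IFITM genes tested, membrane proteins that hinder viral entry, were lower, IFITM3 by a log2 fold change of -1.11 and IFITM2 by one of -0.63. All 3 of PARP9, DTX3L and PARP14 were lower, the first pair, which encode a complex of an ADP-ribosyltransferase-like protein and an E3 ligase, by log2 fold changes of -0.48 and -0.33. SAMD9 (-0.94), IFI44 (-0.66) and the secreted LGALS3BP (-0.72) completed the 15. The IFITM genes are near-identical neighbours whose reads can be split, and PARP9 and DTX3L overlap head to head, so their values are less certain.

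The 3 members that rose were IFIH1, RIGI and STAT2. IFIH1 (MDA5, a sensor of long double-stranded RNA) was at 9.91, 11.2 and 10.8 CPM with vehicle and 19.5, 16.8 and 17.5 CPM with DOX. Each DOX sample exceeded each vehicle sample and the log2 fold change was 0.76 (SE 0.116, adjusted p = 2.12e-05). RIGI, the sensor of short and triphosphorylated RNA, went from 16.8, 19.6 and 19.0 to 24.2, 23.2 and 23.0 CPM (log2 fold change 0.35, SE 0.0986, adjusted p = 0.00545). STAT2 went from 33.7, 35.1 and 38.6 to 43.9, 46.3 and 43.4 CPM (0.32, SE 0.0817, adjusted p = 0.00284). Neither gene showed an overlap between the groups, although both changes were small. Values for ISG15 (log2 fold change 0.27, adjusted p = 0.0789), IFI6 (-0.28, adjusted p = 0.116), ISG20 (0.27), USP18 (0.18), MX1 (0.12), IRF7 (0.18), IFI35 (0.19) and IRF1 (-0.09) did not pass the test.

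The same comparison in LNCaP-AI cells gave more increases than decreases among the members that passed the test. Of 37 members tested, 8 were higher, 1 was lower and 28 did not pass the test, with a median log2 fold change of 0.20 beside -0.05 over all 16030 genes. Among all genes 7.22% were called higher and 5.52% lower. IFITM1, SAMD9L and TRIM22 passed the filter only through the group in which they were high, and without them 6 of 34 were higher and 1 lower. The endothelial markers were higher with DOX as well in this line, at a sum of 5.08 to 5.62 CPM with vehicle and 8.28 to 9.28 CPM with DOX, mostly VWF, with CDH5 at 0 or 1 count, while the leukocyte and fibroblast sums overlapped, and their part in the result was not tested. The genes that rose were IFIT2, IFIT3, ISG15, ISG20, IFI6, IFI35, SAMD9L and TRIM22.

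IFIT2 was at 2.05, 1.98 and 1.91 CPM with vehicle and at 5.74, 7.59 and 6.03 CPM with DOX in LNCaP-AI cells. The lowest DOX sample was well above the highest vehicle sample, and the log2 fold change was 1.67 (SE 0.180, adjusted p = 0.0123), with 1.68 and 1.51 within the sides. ISG15, a ubiquitin-like modifier that is attached to proteins, was at 11.7, 8.87 and 10.8 CPM with vehicle and 22.2, 24.3 and 21.1 CPM with DOX. This rise of 1.08 on the log2 scale (SE 0.149, adjusted p = 0.0148) was present in both sides, at 0.95 and 1.16. IFI35, which binds the transcriptional regulator NMI, went from 4.23, 4.01 and 3.37 to 7.98, 7.76 and 8.73 CPM, a log2 fold change of 1.05 (SE 0.161, adjusted p = 0.0171). ISG20, a 3′ to 5′ exonuclease, went from 4.81, 5.08 and 4.30 to 8.26, 10.1 and 9.58 CPM (log2 fold change 0.95, SE 0.153, adjusted p = 0.0186). In both genes all DOX samples were above all vehicle samples, and the values within the sides were 0.95 and 1.09 for IFI35 and 1.02 and 0.80 for ISG20. TRIM22, an E3 ligase, was near the floor, with 3, 3 and 5 counts under vehicle and 13, 10 and 11 under DOX. SAMD9L was similar, with 4, 3 and 3 counts against 14, 10 and 13. IFIT3 was at 1.65, 1.66 and 2.22 CPM with vehicle and 4.27, 3.37 and 3.44 CPM with DOX, a log2 fold change of 0.97 (SE 0.209, adjusted p = 0.0354), and 1.00 and 1.10 within the sides. IFI6, a mitochondrial and endoplasmic reticulum protein, went from 3.83, 4.97 and 5.20 to 8.59, 8.62 and 11.0 CPM, a log2 fold change of 0.98 (SE 0.185, adjusted p = 0.0256), with 1.33 and 0.74 within the sides.

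OAS3 was the single member that fell in LNCaP-AI cells, from 59.5, 51.1 and 55.6 CPM to 31.9, 28.7 and 26.7 CPM. Its log2 fold change was -0.96 (SE 0.109, adjusted p = 0.0123), and -1.10 and -0.74 within the sides. OAS3 was also lower in DU-145 cells, where the vehicle samples had 58.1, 58.9 and 50.3 CPM and the DOX samples 38.1, 42.0 and 37.3 CPM, and the difference between the lines (LNCaP-AI minus DU-145 -0.42, SE 0.138) did not pass the adjusted threshold (adjusted p = 0.0857). The other synthetase measured in LNCaP-AI cells, OAS1, had 11, 7 and 11 counts with vehicle and 18, 19 and 18 with DOX (log2 fold change 1.14, adjusted p = 0.0564). IFIT1 and IFI44 missed the threshold narrowly, with log2 fold changes of 1.11 (SE 0.279, adjusted p = 0.0515) and 1.11 (SE 0.277, adjusted p = 0.0511), and had no overlap between their groups.

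The edgeR calls in LNCaP-AI cells depended on which samples were kept. When DOX 2 or DOX 3 was left out, edgeR called no member, with smallest adjusted p-values of 0.0854 and 0.0829. In these fits 9 and 10 members were higher and 3 and 2 lower at an unadjusted p under 0.05. DESeq2 called 7 higher and 1 lower in both cases. The shares of all genes at these settings are not given here. Without DOX 1, edgeR called 7 of the 9 members again. What sets these fits apart was not tested. With the side of the division as a covariate all 9 members called in the main fit were called again, but those sides were themselves read from these counts.

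**Figure D2:**
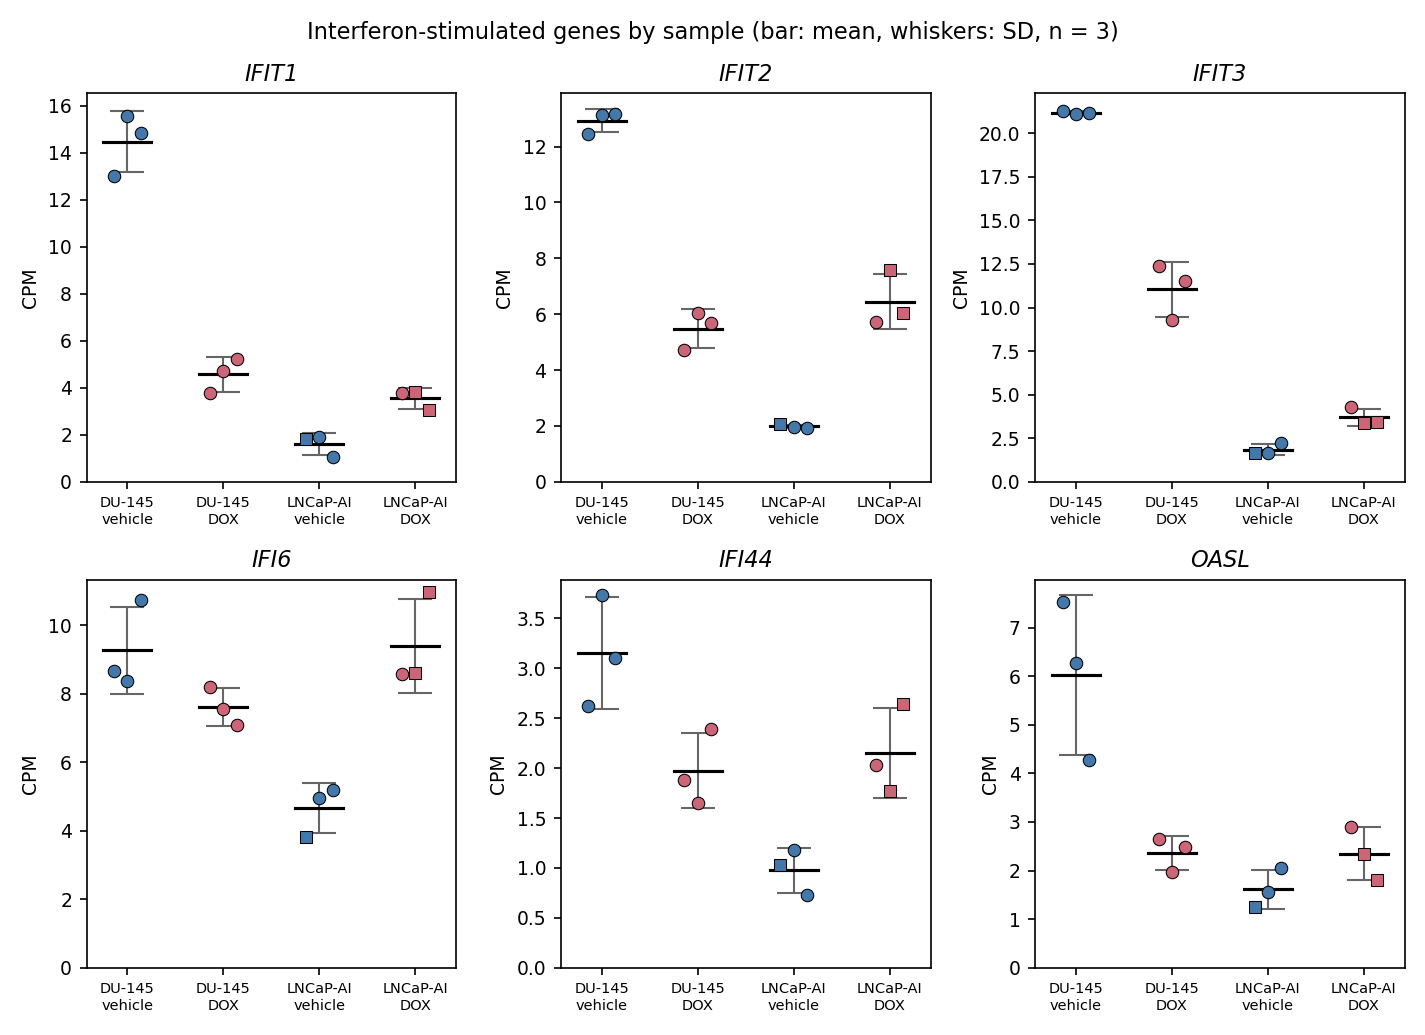
CPM of 6 members in every sample, with 1 panel per gene and the 4 groups along the horizontal axis. Blue points are vehicle and red points DOX samples, squares are vehicle 1, DOX 2 and DOX 3 of LNCaP-AI cells, bars are means and whiskers SD (n = 3). IFIT1, IFIT2, IFIT3 and IFI44 are lower with DOX in DU-145 cells and higher with DOX in LNCaP-AI cells.

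The question of whether the members changed differently in the lines was addressed by the interaction of line and treatment, fitted over all 12 samples and given as the log2 fold change in LNCaP-AI minus that in DU-145 cells. Of 37 members tested, edgeR called 11 with a higher value in LNCaP-AI and 0 with a lower one, beside 5.43% and 3.76% of all 16800 genes tested. At an unadjusted p under 0.05 the counts were 15 and 1, and DESeq2 called 12 and 0. The shares of all genes by these rules are not given here, so these counts have nothing to be read against. All 11 were among the 27 that passed the filter in both lines, whereas none of the 10 that passed through LNCaP-AI cells alone was called. The median difference over the 27 was 0.57, beside -0.02 over all genes.

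Among the members called, IFIT2, IFIT1 and IFIT3 had the largest differences. The difference was 2.94 for IFIT2 (SE 0.215, adjusted p = 9.54e-05), 2.81 for IFIT1 (SE 0.319, adjusted p = 0.00104) and 1.94 for IFIT3 (SE 0.232, adjusted p = 0.00121). IFIT1 measured 1.83, 1.92 and 1.08 CPM in LNCaP-AI vehicle samples and 3.78, 3.82 and 3.04 CPM with DOX, while in DU-145 cells it fell. IFI6 differed by 1.29 (SE 0.239, adjusted p = 0.00914), its DU-145 samples being at 8.68, 8.39 and 10.7 CPM with vehicle and 8.2, 7.55 and 7.09 CPM with DOX. IFI44, a cytoplasmic protein of unsettled function, was at 2.62, 3.74 and 3.10 CPM against 1.89, 1.65 and 2.39 CPM in DU-145 cells, and at 1.03, 1.18 and 0.729 CPM against 2.03, 1.77 and 2.65 CPM in LNCaP-AI cells. Its groups did not overlap in either line, in opposite order, and the difference was 1.81 (SE 0.369, adjusted p = 0.0141). OASL (1.89), IFITM3 (1.12), IFI35 (0.90), ISG15 (0.84), PARP9 (0.57) and DTX3L (0.56) were the other members called.

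By sign alone, 13 of the 27 members moved in opposite directions, 10 of them lower in DU-145 and higher in LNCaP-AI cells. This was 48.1% of them, beside 37.3% of the 12984 genes tested in both lines. IFIT2 and IFIT3, 7.41% of the 27, passed the test in opposite directions in each line and in the interaction as well, beside 0.863% of all those genes. For OASL, IFITM3, PARP9 and DTX3L the difference came with log2 fold changes of 0.51, -0.01, 0.05 and 0.20 in LNCaP-AI cells that did not pass the test. For ISG15 and IFI35 the values in DU-145 cells were 0.27 and 0.19, of the same sign as the increase in LNCaP-AI cells. DDX60, which fell most in DU-145 cells, was at 2.01, 4.60 and 3.23 CPM with vehicle and 3.91, 0.913 and 0.845 CPM with DOX in LNCaP-AI cells, where vehicle 1, DOX 2 and DOX 3 were low, and its difference was not called (1.54, SE 0.745, adjusted p = 0.229).

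IFIT1, IFIT2 and IFIT3 lie within the annotated span of LIPA, which encodes lysosomal acid lipase and is transcribed from the opposite strand (chromosome 10, 89213569 to 89414557). LIPA rose from a mean of 126 to 158 CPM in DU-145 cells (log2 fold change 0.33, adjusted p = 0.000543) and from 63.4 to 107 CPM in LNCaP-AI cells (0.73, adjusted p = 0.0136). The library kit marks strand, but the strand setting of the counting is not given in the sources used here, and the part of LIPA reads in the IFIT counts was not tested. LIPA and these 3 genes moved in opposite directions in DU-145 cells, and in LNCaP-AI cells all 4 had positive log2 fold changes.

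**Figure D3:**
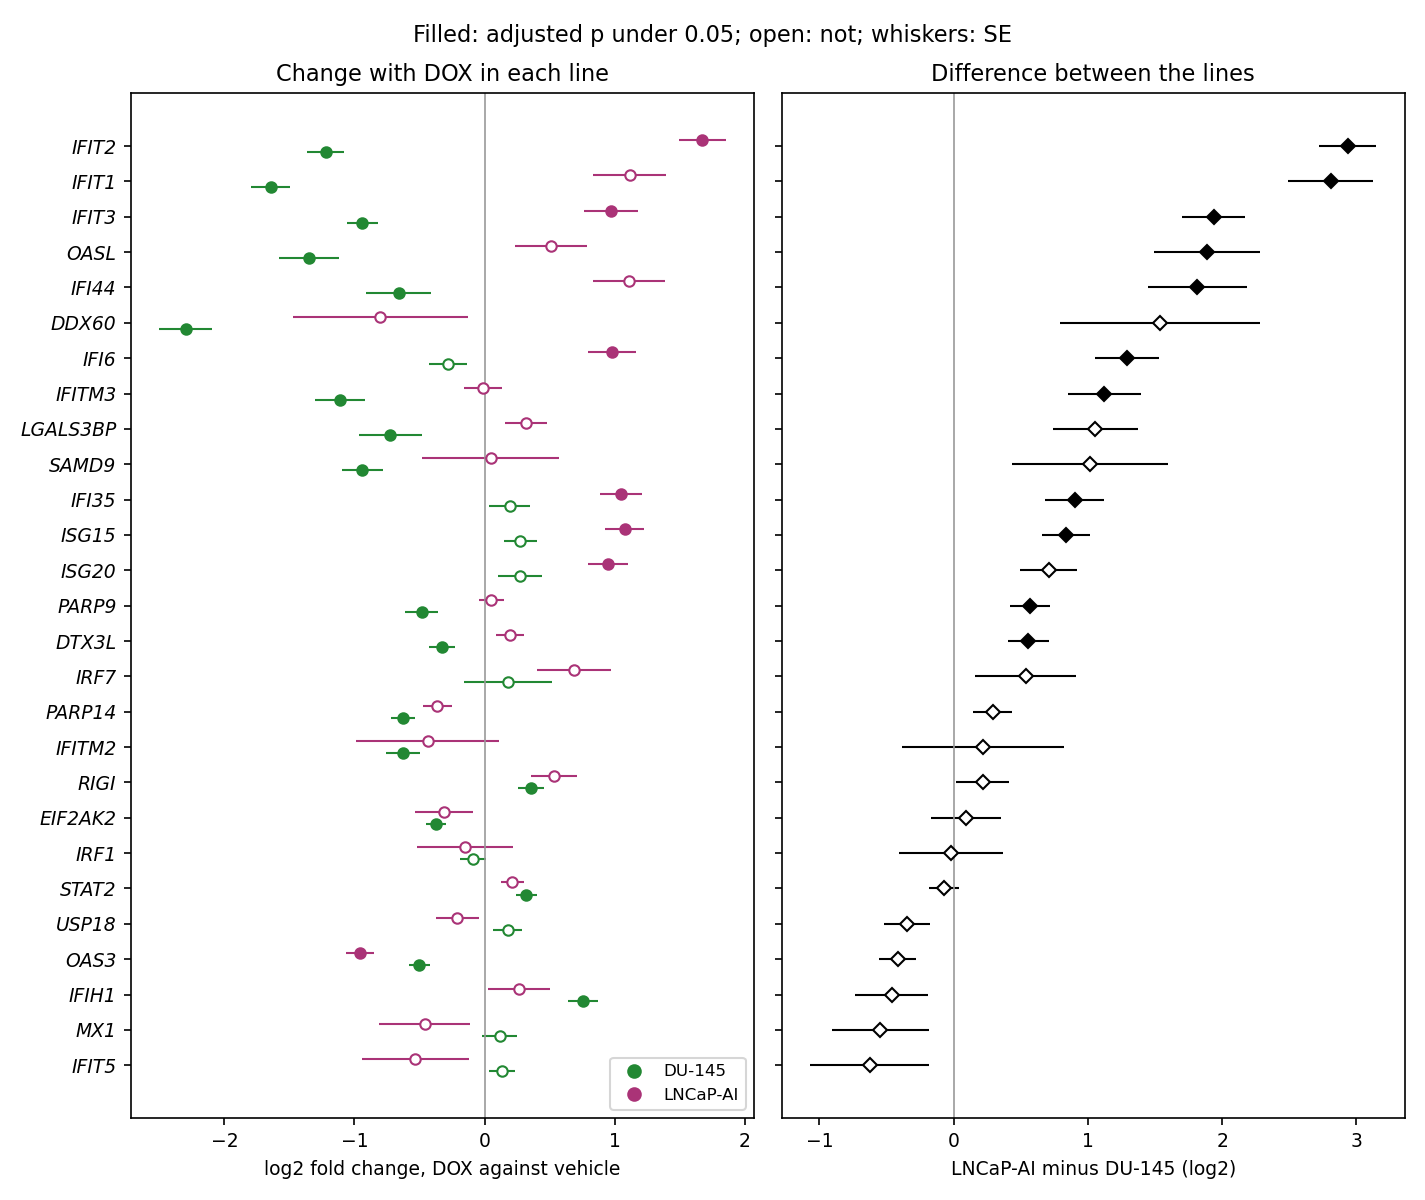
Log2 fold change with DOX in DU-145 (green) and LNCaP-AI cells (purple) for the 27 members tested in both lines (left) and the difference LNCaP-AI minus DU-145 from the interaction (right), ordered by that difference. Points are estimates with SE as whiskers, filled where the adjusted p was under 0.05. The 11 filled points on the right are all above 0, from 0.56 for DTX3L to 2.94 for IFIT2.

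The level of the members before silencing was compared between the vehicle samples of the lines. Of 32 members tested 15 were lower and 9 higher in LNCaP-AI than in DU-145 cells, beside 30.2% of all 15628 genes lower and 35.0% higher. IRF9, IFITM1, CMPK2, BST2 and EPSTI1 passed the filter through LNCaP-AI cells alone, and of the other 27 members 15 were lower and 4 higher. All 4 IFIT genes were lower. IFIT3 was 11.7-fold lower (log2 difference -3.55, SE 0.179, adjusted p = 9.42e-06), IFIT1 9.29-fold lower (-3.22, SE 0.256) and IFIT2 6.68-fold lower (-2.74, SE 0.158). With DOX the IFIT2 levels of the lines overlapped, 4.72 to 6.06 CPM in DU-145 and 5.74 to 7.59 CPM in LNCaP-AI cells. IRF1, a transcription factor induced by interferon gamma, was also lower (-2.51, SE 0.282), as were OASL (-1.92), MX1 (-1.85), IFI44 (-1.73), PARP14 (-1.58), RIGI (-1.47) and DDX60 (-1.33).

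Members that were higher in LNCaP-AI cells included several without counts in DU-145 cells. BST2, the virus-tethering membrane protein tetherin, had 0 counts in all 6 DU-145 samples and 15, 105 and 247 counts in LNCaP-AI vehicle samples. Against a floor of 3 counts per library its mean level was at least 18.5-fold higher, and at least 11.8-fold higher without vehicle 3. Vehicle 1, the low library, lies on the other side of the division from vehicle 2 and vehicle 3. EPSTI1 had 0 counts in the DU-145 vehicle samples and 16, 30 and 50 in LNCaP-AI samples (at least 5.06-fold higher). IFITM1 had 0 against 17, 13 and 23 counts (at least 2.81-fold higher). These 3 genes therefore could not be followed under silencing in DU-145 cells. CMPK2 is a mitochondrial nucleotide kinase whose gene overlaps RSAD2 on the opposite strand. Its level was 0.409, 0.606 and 0.252 CPM in DU-145 and 5.13, 3.74 and 3.82 CPM in LNCaP-AI vehicle samples. Since CMPK2 passed the filter through LNCaP-AI cells alone, its log2 difference of 3.29 is given without a p-value. IFITM3 (1.98), PARP9 (1.72), IRF7 (1.49) and DTX3L (1.32) were higher as well. So was IRF9 (1.21), which passed the filter through LNCaP-AI cells alone. ISG15, OAS3, ISG20 and STAT2 had log2 differences of 0.02, -0.05, -0.17 and -0.19 that did not pass the test.

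Per kilobase of exon, the members with the highest mean level in DU-145 vehicle samples were EIF2AK2 (15.7 CPM per kilobase), ISG15 (11.6) and IFI6 (9.90). In LNCaP-AI vehicle samples they were DTX3L (13.8), ISG15 (12.1), EIF2AK2 (10.9) and IFITM3 (10.9). In LNCaP-AI cells the range of ISG15 overlapped those of DTX3L, EIF2AK2 and IFITM3. The range of DTX3L (12.8 to 15.3) lay above those of EIF2AK2 (8.07 to 12.6) and IFITM3 (9.11 to 12.5). Genes are measured in the same libraries, and their order within libraries was not tested. At the other end OAS2, IFI27, XAF1, MX2 and TRIM22 stayed under 0.05 CPM per kilobase on average in all 4 groups. Exon length was the union of all annotated exons, such as 867 bases for ISG15 and 12556 for TRIM22. The order therefore depends on the annotation too.

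**Figure D4:**
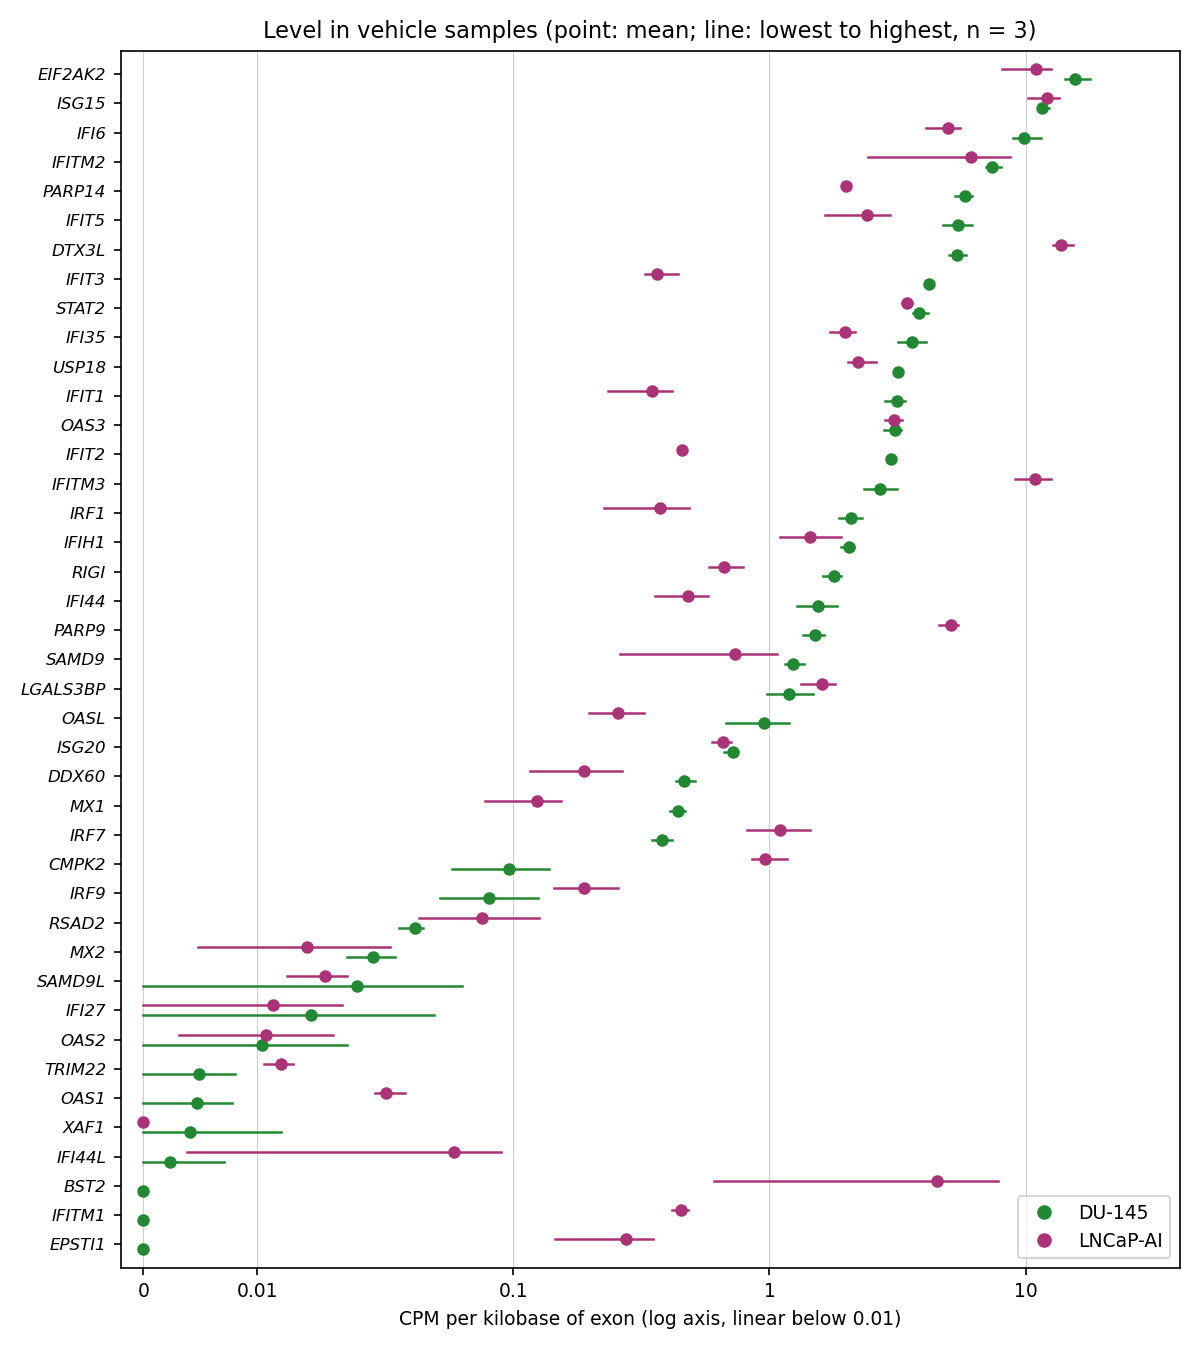
Level of all 41 members in vehicle samples of DU-145 (green) and LNCaP-AI cells (purple), as CPM per kilobase of exon on a log axis that is linear below 0.01, ordered by the level in DU-145 cells. Points are means and lines run from the lowest to the highest of 3 samples. The IFIT1, IFIT2 and IFIT3 points of LNCaP-AI cells lie to the left of those of DU-145 cells, and those of BST2, IFITM1 and EPSTI1 in DU-145 cells sit at 0.

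The 57 other genes of the pathway were read beside the members. Among the 21 interferon ligands none passed the filter in either line. IFNE had 3 to 15 counts in each DU-145 sample and 0 in LNCaP-AI samples, and IFNA1, IFNA2 and IFNL3 had at most 2 counts. The remaining 17, IFNB1 and IFNL1 among them, had 0 counts in all 12 samples. At this depth a level under 3 counts per library could not be told from 0. In DU-145 cells 6 of 31 pathway genes tested were higher with DOX and 12 lower, beside 26.3% and 25.3% of all genes tested there.

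IFNGR1, the ligand-binding chain of the interferon gamma receptor, was at 43.1, 45.0 and 49.6 CPM in DU-145 vehicle samples and at 15.6, 16.8 and 15.2 CPM with DOX. The groups were far apart, with a log2 fold change of -1.52 (SE 0.0928, adjusted p = 1.66e-10). In LNCaP-AI cells IFNGR1 was at 37.0, 58.4 and 51.0 CPM with vehicle and at 18.7 and 19.9 CPM in DOX 2 and DOX 3, while DOX 1 lay within the range of the vehicle samples, and it did not pass the test (log2 fold change -0.94, SE 0.325, adjusted p = 0.110). HERC5, the ligase that attaches ISG15, differed between the lines by 1.07 on the log2 scale (SE 0.262, adjusted p = 0.0312). Its log2 fold changes of -0.13 in DU-145 and 0.91 in LNCaP-AI cells did not pass the test. Further decreases in DU-145 cells were those of the receptor chains IFNAR2 (-0.51) and IL10RB (-0.27), JAK2 (-0.62), STING1 (-0.54), CGAS (-0.36), IRF5 (-0.72), IKBKE (-0.48), MAVS (-0.18), IRF2BP1 (-0.57) and IRF2BP2 (-0.40). The adaptor TICAM1 (0.82), SOCS3 (0.55), JAK1 (0.49), STAT3 (0.24) and IRF3 (0.22) were higher.

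Several sensors and signalling genes, like some members, separated by side in LNCaP-AI cells rather than by treatment. JAK1, the kinase shared by type I, II and III receptors, was detected in LNCaP-AI cells with 89, 696 and 1031 counts under vehicle and 805, 84 and 74 under DOX, so vehicle 1, DOX 2 and DOX 3 were low and the other samples high. In DU-145 cells JAK1 was at 179, 175 and 155 CPM with vehicle and 251, 234 and 224 CPM with DOX. CGAS showed the widest gap, with 1, 333 and 476 counts under vehicle and 357, 1 and 1 under DOX. STING1 (6, 30 and 54 against 52, 3 and 3 counts) and IFNLR1 (1, 64 and 102 against 85, 0 and 1) had the same order. Among members BST2 had 15, 105 and 247 counts with vehicle and 164, 9 and 13 with DOX, and IFI44L 1, 18 and 30 with vehicle and 14, 0 and 0 with DOX. Of 37 members tested in LNCaP-AI cells 10 were higher in all samples of the side of vehicle 2 than in all of the other side (27.0%), beside 21.4% of all genes tested, and 2 were lower (5.41%, beside 13.8%). The 10 were IRF1, DDX60, EIF2AK2, IFIT5, IFITM2, IFITM3, SAMD9, IFI44L, BST2 and EPSTI1. A member with all DOX samples above all vehicle samples could not be among them. The list therefore does not bear on the members that rose with DOX in LNCaP-AI cells.

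**Figure D5:**
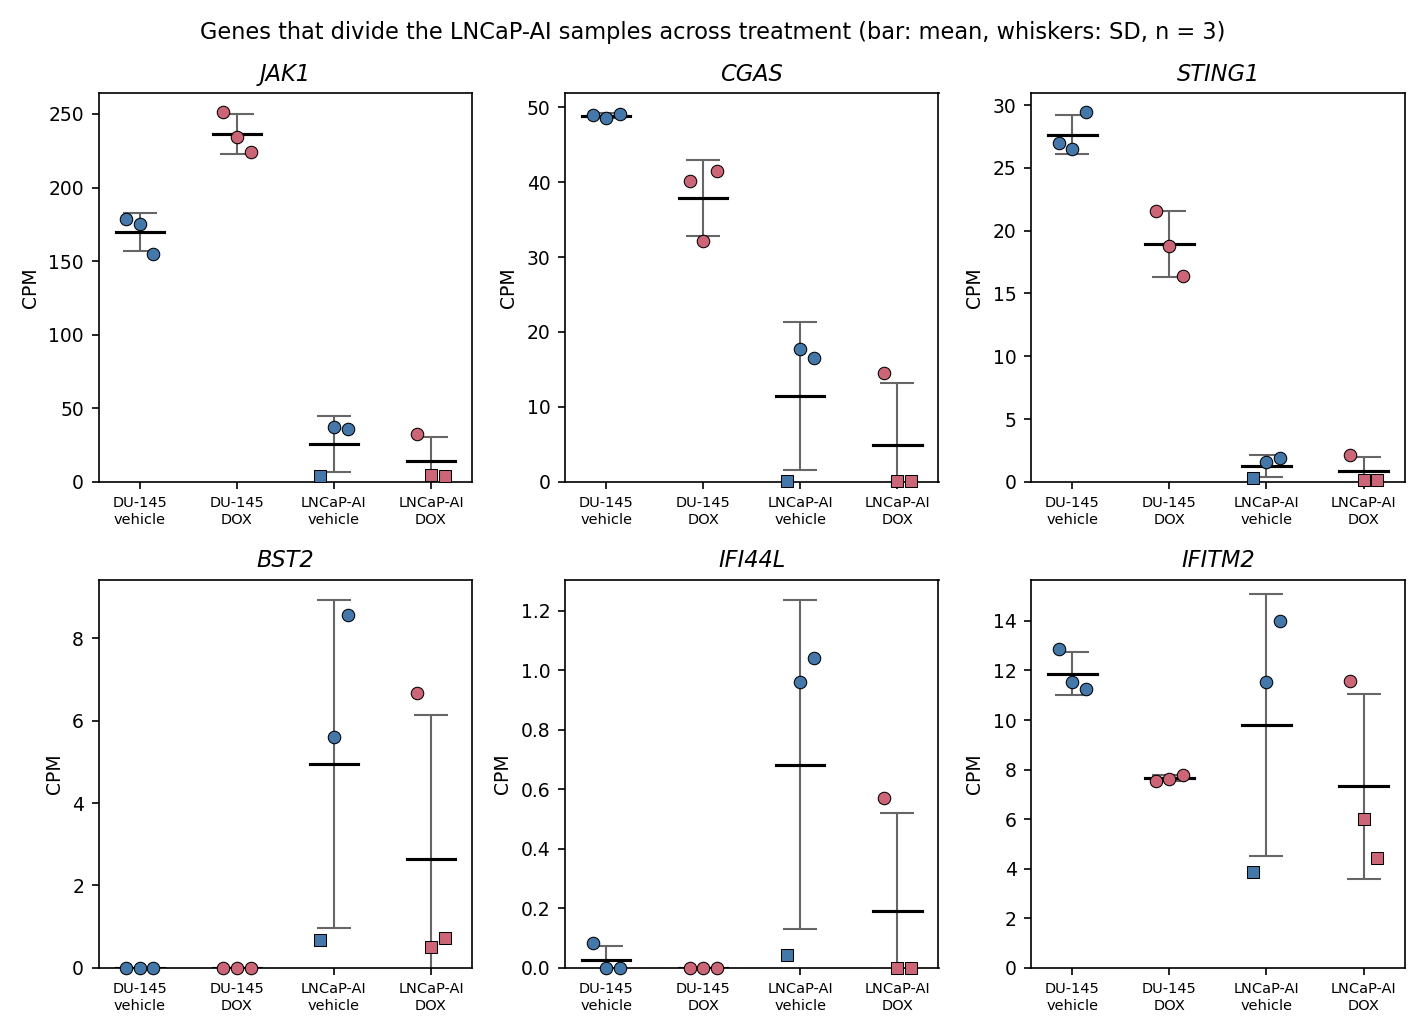
CPM of JAK1, CGAS, STING1, BST2, IFI44L and IFITM2 in every sample, with the 4 groups along the horizontal axis. Squares are vehicle 1, DOX 2 and DOX 3 of LNCaP-AI cells, bars are means and whiskers SD (n = 3), drawn down to 0 at most. In LNCaP-AI cells the squares lie below the circles in both groups for all 6 genes.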

How the data were processed

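Polyadenylated RNA of 12 samples, 3 in each of 4 groups, was sequenced from a stranded kit. The submitters' processing notes name CASAVA 1.8.2, STAR 2.7.0, DESeq2 1.24.0 and GRCh38.p7, while the counting tool and its strand setting are not given in the sources used here. The authors deposited raw counts per Ensembl gene, 58037 identifiers in 1 table, of which 56993 were matched to a symbol. Groups were taken from the labels. Genes reaching 10 counts in 3 or more samples of a comparison were kept, scaled by TMM and tested with edgeR 4.0.16 (quasi-likelihood, Benjamini-Hochberg, adjusted p under 0.05) in R 4.3.3, with fits per line for DOX against vehicle and over all 12 samples for the interaction. SE is the log2 fold change divided by the root of F. Levels are TMM-scaled CPM. Folds within the sides used log2(CPM + 0.1). The fits were tested on simulated data, where false calls averaged somewhat above the nominal rate in all comparisons but the interaction, most of all in LNCaP-AI cells. The members, pathway genes and marker lists were chosen with earlier results of these data known. Any member could be named. Values by sample, as CPM or counts, were given for members called in opposite directions, the 5 called members with the smallest adjusted p per DOX comparison and direction, the 5 with the smallest p for the interaction, the 5 called with the largest change between vehicle samples, pathway genes called with DOX at a log2 change of 1 or more, and IFNB1, IFNL1, JAK1 and MUC1. Some genes that this rule or the lists name are not reported here. DESeq2 1.42.0, DESeq2 size factors, other filters, a fit over all samples, a replicate block, the side of the division and leaving out each sample were the alternatives. Replicates differed by more than sampling noise (chi-square over degrees of freedom at least 2.38). Positions are from GENCODE release 44 (GRCh38), and promoters from RefSeq. Floors of 3 counts cover counting error only.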

Additional observations from a re-analysis of the deposited data

Results flagged for a closer look

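Results are listed here because the effect of DOX differed between the lines by the interaction test of edgeR, at an adjusted p under 0.05, with each value the log2 fold change in LNCaP-AI minus that in DU-145 cells. Among members these were IFIT2 (2.94), IFIT1 (2.81), IFIT3 (1.94), OASL (1.89), IFI44 (1.81), IFI6 (1.29), IFITM3 (1.12), IFI35 (0.90), ISG15 (0.84), PARP9 (0.57) and DTX3L (0.56). IFIT1, IFIT2, IFIT3, IFI6, IFI44 and OASL were called in 12 of 12 fits that each left out 1 sample. Among the other genes of the pathway HERC5 differed by 1.07. MUC1 itself differed by 1.95, with a larger fold decrease in DU-145 cells, where its level with vehicle was also higher. It passed the filter only through the vehicle groups. With DOX its level was 0.283, 0.236 and 0.266 CPM in DU-145 and 0.326, 0.342 and 0.169 CPM in LNCaP-AI cells. The DU-145 values stand for 3 counts each, the floor of detection. Since the fold decrease of MUC1, its level with vehicle and the line differ together, their parts in these differences cannot be told apart.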

How the results depend on the processing

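Of 18 members called in DU-145 cells, 5 also changed by 1 or more on the log2 scale, and leaving out 1 sample gave 16 to 17. In LNCaP-AI cells 9 members were called, 5 with the fold rule, 23 with the side of the division as a covariate, and 0 to 13 when leaving out 1 sample (0 without DOX 2 or without DOX 3, 6 without vehicle 2 or vehicle 3). In the interaction 11 were called, 7 without a filter on low counts, 7 with the fold rule, 19 with the side as a covariate, and 6 to 14 when leaving out 1 sample (7 without DU-145 vehicle 1, 6 without LNCaP-AI DOX 2, 7 without DOX 3). Between vehicle samples 24 were called, 17 to 23 when leaving out 1 sample, and no alternative moved this count by over 1.5 times. The replicate numbers did not pair the samples: deviations of same-numbered samples correlated at 0.15, -0.11 and 0.0899 in DU-145 and at -0.945, -0.83 and -0.858 in LNCaP-AI cells. With the replicate block edgeR called 18 members in DU-145 cells, 2 in the interaction, 23 between vehicle samples and 0 in LNCaP-AI cells, where 12 were higher and 2 lower at an unadjusted p under 0.05 and DESeq2 with the block called 5 higher and 1 lower. No value called in the main fit or in the alternative reversed its direction, and the signs of values called in neither were not compared. Members near the floor, such as TRIM22 and SAMD9L, are limited by their depth. The shares of all genes called under these alternatives are not given here. The counts of members therefore show only how the calls depend on the processing.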
